A study of Mus musculus with 6 samples.

Results

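The genes described here are 38 that fold, oxidize or dispose of proteins in the endoplasmic reticulum (ER), of 18193 genes with a probe set of their own on the array. They were taken from a list of names that was chosen with earlier results of these data known. By role they were sorted into 15 chaperones, 10 disulfide enzymes, 11 genes of ER-associated degradation and 2 sensors of ER stress. Control OBs were MC3T3-E1 cells, a clonal mouse calvarial pre-osteoblast line, left without ascorbic acid (AA) for 5 days, and AA-treated OBs received 50 µg of AA for the same 5 days, a dose the labels give without a volume. Both groups came from MC3T3-E1 subclone 4, grown with serum in 6-well plates, and each held 3 RNA samples, 1 per Affymetrix Mouse Genome 430 2.0 array. The study describes both triplicate wells and triplicate experiments, so the p-values measure the spread between these samples, which may be technical. Since the RNA is from whole cultures, a change in the share of a cell type and a change in RNA per cell cannot be told apart.

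Procollagen, the main cargo of an OB, is threaded into the ER, glycosylated, cross-linked by disulfide bonds in its propeptides and hydroxylated by enzymes that need AA before its chains form a triple helix. BiP and its partners hold unfolded chains, calnexin and calreticulin retain glycoproteins until they fold, and protein disulfide isomerases (PDIs) form and shuffle disulfide bonds with oxidizing power from the ERO1 oxidases. Chains that fail are trimmed by EDEM proteins, read by the lectins OS-9 and XTP3-B, and passed through a membrane ubiquitin ligase to the proteasome, while IRE1 and PERK sense misfolded protein and set off the unfolded protein response.

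The deposited MAS5 signals, linear and scaled to the same trimmed mean on every array, had medians of 14.9 to 17.7 on the control arrays and 16.2 to 16.9 on the AA arrays. All 38 genes lay above the array median on all 6 arrays. Control replicate 3 had the highest ratio of 3' to 5' actin signal, 1.79 against 1.35 to 1.45 elsewhere, a ratio read as a sign of RNA integrity. Of 9 osteoblast markers measured, 3 were higher in AA-treated cells (Alpl, Ibsp and Ifitm5), and the summed signal of the list was 23446 to 27793 in controls and 29592 to 38625 with AA. Among markers of other cells, 2 of 7 of chondrocytes (Col2a1 and Hapln1) and 1 of 8 of macrophages and leukocytes (Csf1r) rose, and 0 of 6 of adipocytes and 0 of 7 of skeletal muscle passed. The summed signals in controls and with AA were 387 to 472 and 688 to 786 for the chondrocyte list, 98.8 to 129 and 176 to 219 for the macrophage list, 56.2 to 79.7 and 72.3 to 84.4 for the adipocyte list, and 106 to 132 and 103 to 114 for the muscle list. Within the macrophage list, Csf1r had mean signals of 24.5 in controls and 87.4 with AA. Of its 8 genes, 3 had a log2 fold change above 0 and 5 below, and 2 lay above the array median on all arrays. The part of these other cells in the results that follow was not tested.

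To see how the ER machinery stood after 5 days of AA, each gene was read by its brightest probe set and compared between the groups with limma, adjusting over all 45037 probe sets. Most of the machinery did not pass the test. Pdia5, a PDI, rose 1.89-fold, and 3 degradation genes, Edem3, Os9 and Erlec1, rose by 1.31- to 1.35-fold. Ero1a, the main ERO1 oxidase, fell to 0.639 of its control level. The other 33 genes, every chaperone among them, missed the threshold, an adjusted p under 0.05. Over all genes, 4.07% were called higher and 3.85% lower, and over the 10170 genes above the array median on every array, a group that holds all 38, 6.7% were higher and 6.6% lower. The 4 of 38 (10.5%) higher stood above the share of the brighter genes and the 1 of 38 (2.63%) lower below it, which is a description with no test. At an unadjusted p under 0.05 in limma, 13 of the 38 were higher and 5 lower, where 10.7% and 12.9% of all genes and 16% and 20% of the brighter genes were.

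The median log2 fold change was 0.09 over the 38 genes and -0.02 over all genes. It was 0.06 for chaperones, 0.13 for disulfide enzymes and 0.08 for degradation genes. A total of 25 genes had a log2 fold change above 0 and 13 below, counts that were 27 and 11 with the signals as deposited and 23 and 15 with median centring. The 3 AA arrays lay wholly above the 3 control arrays for 16 of the 38 genes and wholly below for 5, where 13% and 15.1% of all genes and 18.2% and 22.1% of the brighter genes did so. For 25 of the 38 genes the 95% interval of the log2 fold change lay inside -0.50 to 0.50, that is, folds between 0.707 and 1.41.

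**Figure D1:**
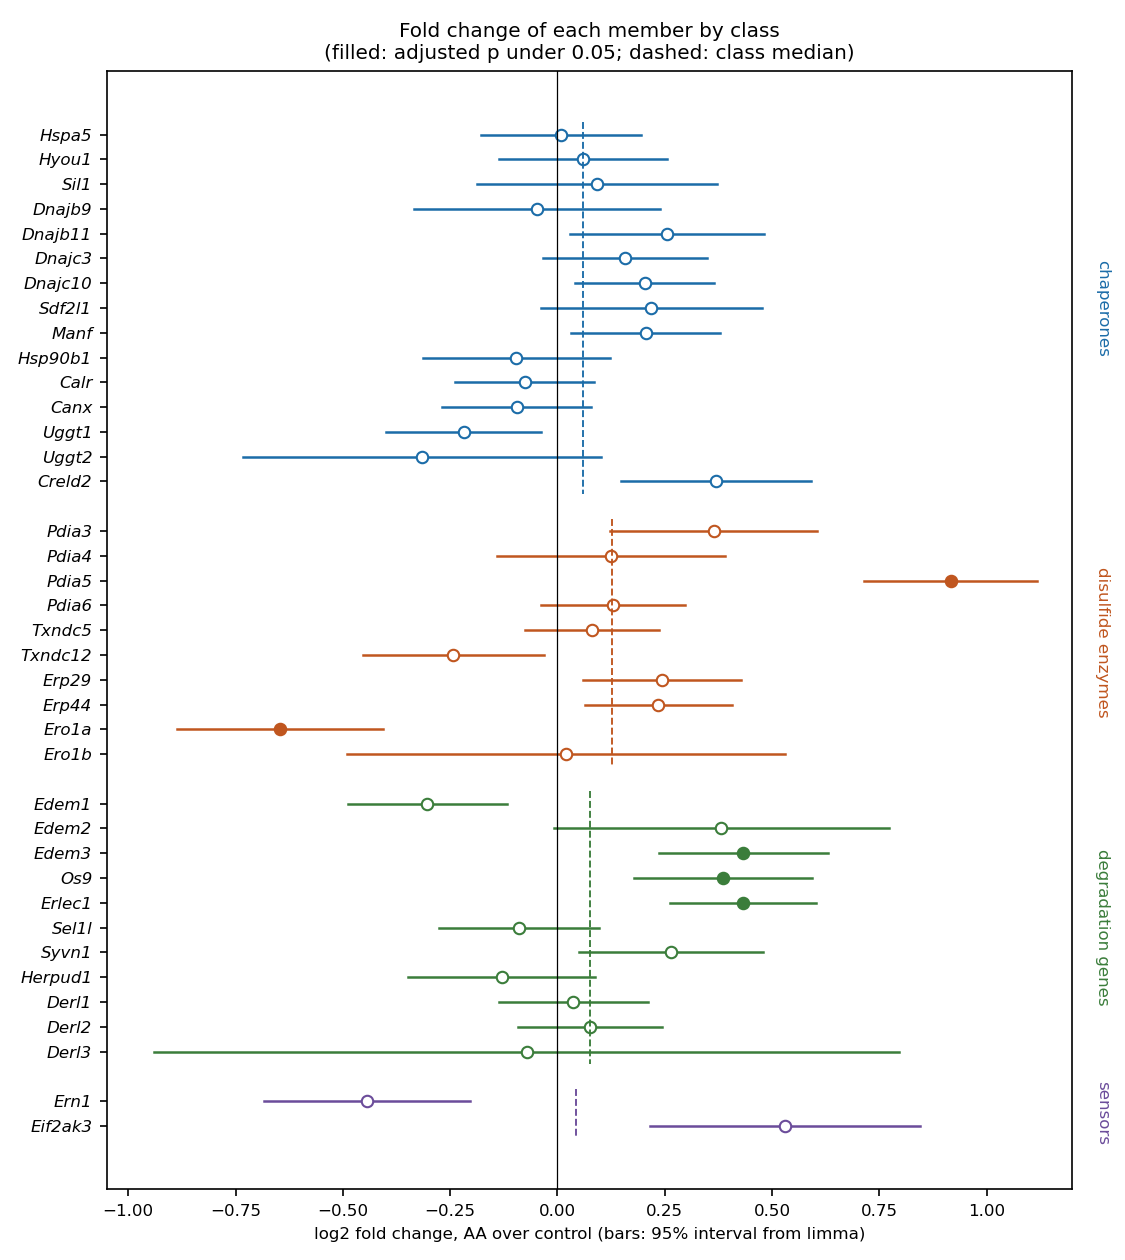
Log2 fold change of each of the 38 genes, AA over control (horizontal axis), with 95% intervals from limma over 3 control and 3 AA arrays, grouped by role (vertical axis). Filled points passed at an adjusted p under 0.05, and dashed lines are class medians. Pdia5 at 0.92 and Ero1a at -0.65 stand farthest out, and all 15 chaperones lie between -0.32 and 0.37.

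Of the 15 chaperones 0 passed limma's test, where 6.7% of the brighter genes were higher and 6.6% lower. In so short a list, that count says little by itself. At an unadjusted p under 0.05 in limma, 4 were higher and 1 lower. The shares were 10.7% and 12.9% of all genes and 16% and 20% of the brighter genes. For 13 of 15 the interval lay within -0.50 to 0.50 on the log2 scale. Hspa5 encodes BiP, the ER Hsp70 and the most used marker of ER stress. Its deposited signals were 5107, 4103 and 4186 in the 3 control samples and 4807, 4995 and 4583 in the 3 AA-treated samples. The groups overlapped, and the log2 fold change was 0.01 (95% interval -0.18 to 0.20, limma adjusted p = 0.978), a range of 0.884- to 1.14-fold. Both other Hspa5 probe sets gave values that did not pass, 0.02 and 0.21.

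The partners of BiP spread around that value. Hyou1 and Sil1, which exchange its nucleotide, had log2 fold changes of 0.06 and 0.09, and Hyou1 turned to -0.03 with median centring. Of the J-domain proteins that recruit BiP to its clients, Dnajb11, Dnajc3 and Dnajc10 stood at 0.26, 0.16 and 0.20, and Dnajb9 at -0.05. Sdf2l1, which acts with Dnajb11, and Manf, a BiP-binding secreted protein, stood at 0.22 and 0.21. The AA arrays lay wholly above the controls for Dnajc3, Dnajc10 and Manf, and the groups overlapped for the others.

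The ER Hsp90, Hsp90b1 (GRP94), had signals of 3025, 3945 and 3523 in controls and 3116, 3502 and 3823 with AA, overlapping groups and a log2 fold change of -0.10 (-0.31 to 0.12). All 4 genes of the glycoprotein-folding cycle had values below 0 at their brightest probe set. However, Calr and Canx turned to 0.01 and 0.00 with the signals as deposited, and Uggt1 to 0.29 with its probe sets averaged. Its other probe sets were at 0.06 and 1.02. The probe set at 1.02 was dim, with signals of 1.016 to 13.66, all under the array medians, and an interval of -1.20 to 3.24. Calreticulin (Calr) and calnexin (Canx), the lectin chaperones, were at -0.08 and -0.10. Uggt1, which re-tags unfolded glycoproteins for another round, was at -0.22 (-0.40 to -0.04, limma adjusted p = 0.185), with AA signals of 556, 552 and 556 all under the control signals of 634, 656 and 681.

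At the ends of the class stood Creld2 and Uggt2. Creld2, a stress-induced ER protein, gave 506, 413 and 474 in the 3 control samples and 545, 577 and 619.9 in the 3 AA-treated samples. Its AA arrays all lay above its controls, and its log2 fold change of 0.37 ± 0.10 (SE, n = 3 per group) missed the threshold (limma adjusted p = 0.0723). It passed in 1 of 10 alternative settings, without replicate 1, at 0.47 (limma adjusted p = 0.0362). Over the 10 settings its value ran from 0.27 to 0.47, with limma adjusted p-values up to 0.364. Uggt2, the paralog of Uggt1, gave 65.9, 52.2 and 57.1 in controls and 42.6, 44.1 and 53.1 in AA-treated cells, overlapping groups and a wide interval of -0.73 to 0.10 around -0.32.

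ER stress is known to act on some genes through short sequences in their promoters, and the letters of such sequences were looked for here. The ER stress element (ERSE, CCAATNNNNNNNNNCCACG) binds NF-Y at its CCAAT end and ATF6 or XBP1 at the other, and ERSE-II (ATTGG, any base, then CCACG) is a shorter form. In RefSeq windows of 250 bases before to 50 after each transcription start (GRCm38.p6), 1 of these was found on either strand in 12 of 36 windows of the listed genes (33.3%) and in 51 of 32851 windows of all genes (0.155%). Windows were found for 32 of the 38 genes. Since the listed genes were chosen by name for their role in the ER, the difference in share is a description with no test. The 250 bases upstream of Hspa5 (chr2:34771840-34772089, plus strand) and of Hsp90b1 (chr10:86705445-86705694, minus strand) are shown 5′ to 3′ on the gene's strand because both genes are defining targets of ER stress, with ERSE matches in capitals. Hsp90b1 holds a match on each strand.
Hspa5: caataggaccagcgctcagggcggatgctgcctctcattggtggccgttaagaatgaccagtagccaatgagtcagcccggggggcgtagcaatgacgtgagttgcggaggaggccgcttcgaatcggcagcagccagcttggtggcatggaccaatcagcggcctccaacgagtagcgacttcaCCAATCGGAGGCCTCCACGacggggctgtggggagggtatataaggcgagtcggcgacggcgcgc
Hsp90b1: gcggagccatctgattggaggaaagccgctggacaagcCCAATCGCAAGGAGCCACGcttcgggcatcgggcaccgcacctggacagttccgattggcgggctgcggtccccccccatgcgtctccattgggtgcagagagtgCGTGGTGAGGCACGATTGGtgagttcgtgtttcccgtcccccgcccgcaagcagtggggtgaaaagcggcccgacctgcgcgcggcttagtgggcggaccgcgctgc

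The 12 genes with an ERSE or ERSE-II match had a median log2 fold change of 0.01, with values from -0.13 for Herpud1 to 0.37 for Creld2. Of these 12, 0 passed limma's test in either direction, where 6.7% of the brighter genes were higher and 6.6% lower. In so short a list a count of 0 says little about these genes. At an unadjusted p under 0.05 in limma, 3 of the 12 were higher (Dnajb11, Creld2 and Syvn1) and 0 lower. The shares were 10.7% and 12.9% of all genes and 16% and 20% of the brighter genes. Of the 20 with neither match, 3 rose and 1 fell, with a median of 0.10, and 7 were higher and 5 lower unadjusted. Of the 6 without a window, Erlec1 rose, and 3 were higher and 0 lower unadjusted. The 12 are 7 chaperones (Hspa5, Dnajb11, Dnajc3, Hsp90b1, Calr, Canx and Creld2), 2 disulfide enzymes (Pdia6 and Ero1b) and 3 degradation genes (Syvn1, Herpud1 and Derl3). A match says only that the letters are in the window.

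**Figure D2:**
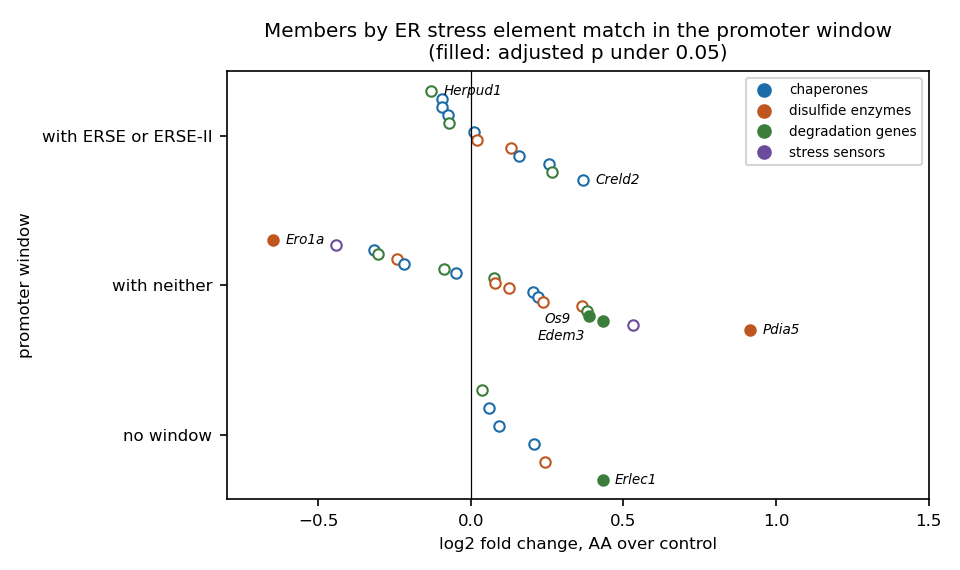
Log2 fold change, AA over control (horizontal axis), of the 38 genes split by whether their promoter window held an ERSE or ERSE-II match, held neither, or was not matched, with colour for role and filled points for an adjusted p under 0.05. The 12 genes with a match lie between -0.13 and 0.37 with no filled point, and 4 of the 20 with neither are filled. Among all genes above the array median on every array, 6.7% were called higher and 6.6% lower.

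Among the disulfide enzymes Pdia5 rose and Ero1a fell. Pdia5 is a PDI family member with thioredoxin-like domains whose single probe set gave 497, 403 and 449.8 in the 3 control samples and 852, 834 and 808 in the 3 AA-treated samples. The lowest AA array stood well above the highest control, with means of 450.1 ± 47.2 and 831 ± 22.5 (SD, n = 3). The log2 fold change was 0.92 ± 0.09 (SE, limma adjusted p = 0.00119), a fold of 1.89 with a 95% interval of 1.64 to 2.17. It was the largest change of the 38 and had no other probe set to set beside it.

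Ero1a, which hands oxidizing power to PDI and is known as a hypoxia-responsive gene, moved the other way. Its signals were 316, 363 and 313 in the 3 control samples and 200.2, 197 and 221 in the 3 AA-treated samples. Every AA array lay below every control, and the log2 fold change was -0.65 ± 0.10 (SE, n = 3 per group, limma adjusted p = 0.0116). The 2 other Ero1a probe sets pointed the same way, at -0.69 (limma adjusted p = 0.0493) and -0.40 (limma adjusted p = 0.0501). Ero1b, the second oxidase, stood at signals of 49.6, 39.5 and 29.0 in controls and 38.2, 38.3 and 39.7 with AA, overlapping and with an interval of -0.49 to 0.53 around 0.02. Without replicate 2 the Ero1a value was -0.55 (limma adjusted p = 0.0990).

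Of the 8 PDI family members, Pdia5 included, 7 lay above 0 under each of 3 scalings, quantile, median and as deposited. Pdia3 (ERp57), the PDI that works with calnexin and calreticulin, gave 3605, 3000.1 and 2431 in controls and 4288, 4001 and 3926 with AA. The AA arrays lay wholly above, but the log2 fold change of 0.36 did not pass (limma adjusted p = 0.101), and its other probe set was at -0.31. It passed in 3 of 10 alternative settings (signals as deposited, probe sets above the median signal and without replicate 1), and stood at 0.03 with both probe sets averaged. Erp29, a PDI-like protein without the redox motif, and Erp44, which retains Ero1 oxidases in the early secretory route, stood at 0.24 and 0.23, both with AA arrays wholly above. Pdia4, Pdia6 and Txndc5, further thioredoxin-fold isomerases, stood at 0.12, 0.13 and 0.08. The AA arrays were wholly above for Pdia6 and Txndc5, and the groups overlapped for Pdia4. Txndc12 (ERp18) was the member below 0, at -0.24 (-0.45 to -0.03, limma adjusted p = 0.207), with all its AA arrays below the controls.

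The upstream bases of Pdia5 (chr16:35490874-35491123, minus strand) and Ero1a (chr14:45318573-45318822, minus strand) follow because these genes changed most. Neither held an ERSE or ERSE-II match. Capitals mark ACGTG or its reverse complement, a form of the core of hypoxia response elements. ACGTG also lies inside the XBP1 site TGACGTGG. Other forms of the hypoxia core were neither searched for nor marked.
Pdia5: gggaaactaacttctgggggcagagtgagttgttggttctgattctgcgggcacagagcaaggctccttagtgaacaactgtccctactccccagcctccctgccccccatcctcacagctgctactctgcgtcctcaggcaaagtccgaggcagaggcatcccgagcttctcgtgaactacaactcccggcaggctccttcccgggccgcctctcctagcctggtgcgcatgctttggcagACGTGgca
Ero1a: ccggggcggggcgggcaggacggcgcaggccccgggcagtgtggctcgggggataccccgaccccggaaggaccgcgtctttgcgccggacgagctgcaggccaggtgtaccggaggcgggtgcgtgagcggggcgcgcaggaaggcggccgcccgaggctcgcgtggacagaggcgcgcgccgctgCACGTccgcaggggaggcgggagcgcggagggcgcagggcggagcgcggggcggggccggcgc

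ACGTG occurred on either strand in 17 of 36 windows of the listed genes (47.2%) and in 6447 of all 32851 (19.6%). The letters are short and common, and they were present in the windows of all 4 changed genes that had one (Pdia5, Edem3, Os9 and Ero1a) and in those of 11 genes that did not pass, Hspa5 and Calr among them. The full XBP1 site was found in Txndc5 alone of the listed genes, against 0.676% of all windows, and the amino acid response core TGATGNAA in Herpud1 and Txndc5, against 3.97%.

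**Figure D3:**
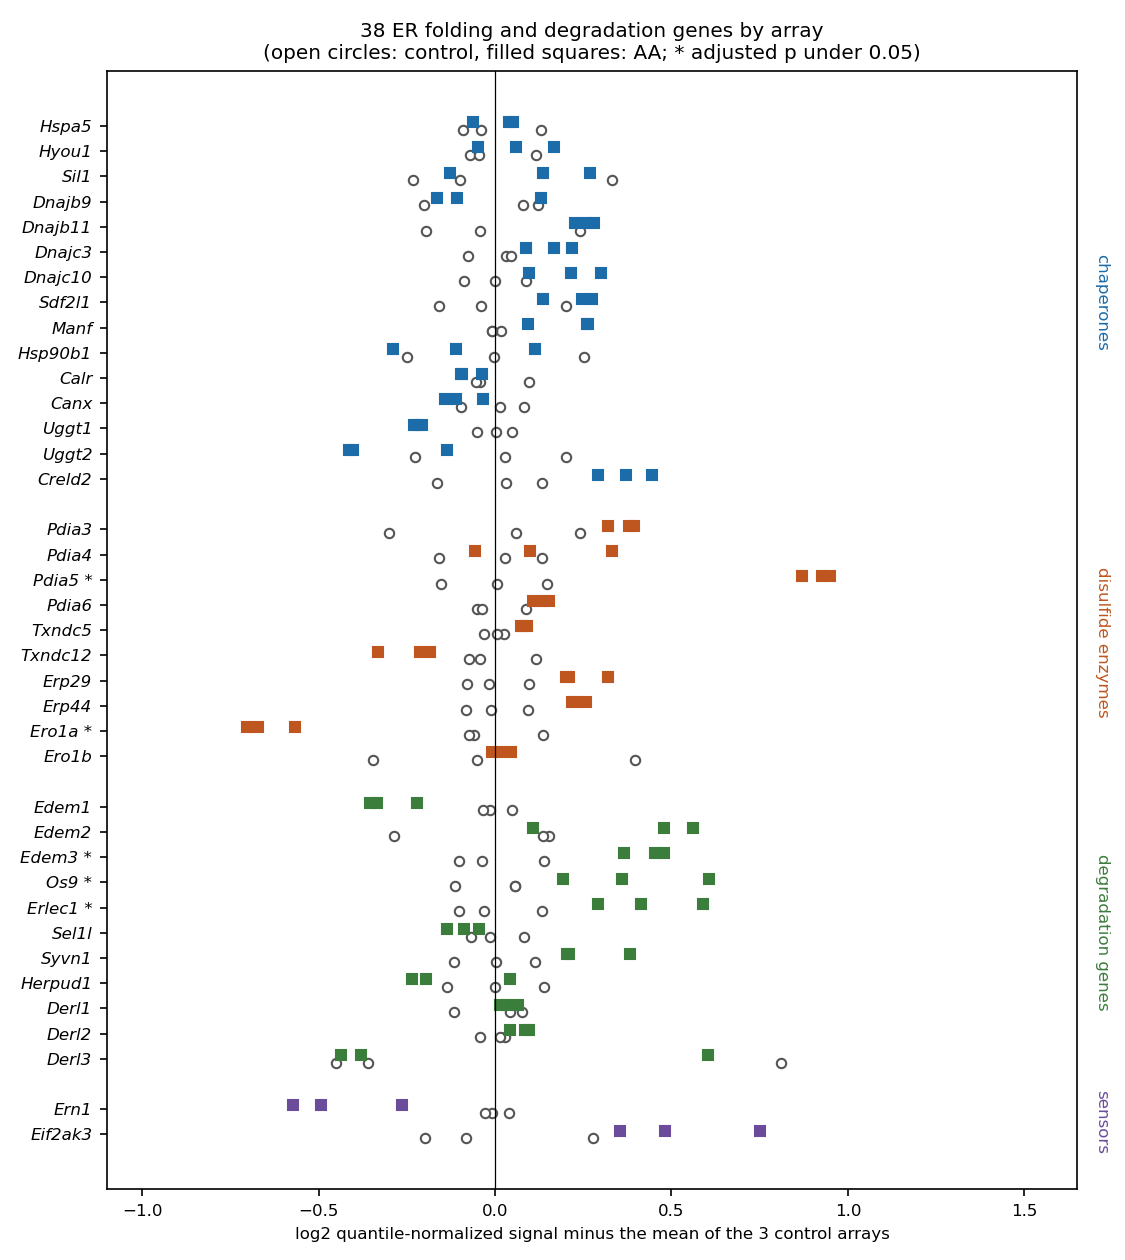
Each gene's log2 quantile-normalized signal on each array minus the mean of its 3 control arrays (horizontal axis), for 3 control arrays (open circles) and 3 AA arrays (filled squares, coloured by role), with 1 row per gene. The AA squares stand clear of the control circles for Pdia5, Ero1a, Edem3, Os9 and Erlec1, which passed (asterisks), and overlap them for Hspa5, Hsp90b1, Calr and Canx.

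The 3 degradation genes that rose read or trim glycans. Os9 and Erlec1 (XTP3-B) are the ER lectins that bind trimmed glycoproteins and bring them to the ubiquitin ligase, and both rose. Erlec1 had signals of 766, 679.9 and 652 in the 3 control samples and 1047, 919.5 and 849 in the 3 AA-treated samples, with no overlap, and a log2 fold change of 0.43 ± 0.07 (SE, n = 3 per group, limma adjusted p = 0.0149). Its dimmer probe sets gave 0.08 and 0.54, neither past the threshold. Os9 had 417, 421 and 373 in controls and 595, 499 and 453 with AA. Its groups did not overlap either, its value was 0.39 ± 0.09 (SE, limma adjusted p = 0.0498), just inside the threshold, and its second probe set stood at 0.86 (limma adjusted p = 0.128).

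The EDEM proteins, which remove mannose from misfolded glycoproteins, diverged. Edem3 gave 597, 528 and 511 in the 3 control samples and 736, 686 and 747 in the 3 AA-treated samples, wholly above, for a log2 fold change of 0.43 ± 0.09 (SE, n = 3 per group, limma adjusted p = 0.0266). Edem1, the member most used as a readout of XBP1, gave 707, 694 and 739 in controls and 599, 547 and 562 with AA. Here the AA arrays lay wholly below, at a log2 fold change of -0.30 that missed the threshold (limma adjusted p = 0.0759), while its other probe set stood at 0.11. Edem2 was at 0.38 (limma adjusted p = 0.289), with overlapping groups. Its other probe set was at -2.34 and the mean of both at -0.98, but that probe set was dim. Its signals, 0.251 to 9.25, were all under the array medians. Without replicate 2, Edem3, Os9 and Erlec1 had limma adjusted p-values of 0.126, 0.164 and 0.108, and without replicate 3, Edem3 had 0.0682. Os9 also missed without replicate 1 (0.187) and without replicate 3 (0.0512).

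The membrane machinery did not pass. Sel1l and Syvn1 (HRD1), adaptor and catalytic subunit of the ligase, stood at -0.09 and 0.27, Syvn1 with AA arrays wholly above. Herpud1 (HERP), a stress-induced scaffold of the same complex, had 981, 878 and 1071 in controls and 1006, 844 and 826 with AA and a log2 fold change of -0.13 (-0.35 to 0.09). The Derlins, which help carry substrates out of the ER membrane, stood at 0.04 for Derl1, 0.08 for Derl2 and -0.07 for Derl3, the last from 2 high arrays, control 2 at 66.9 and AA 1 at 54.2, against 25.5 to 28.9 on the others, so that its interval ran from -0.94 to 0.80. After normalization the AA arrays lay wholly above the controls for Derl2, and the groups overlapped for Derl1 and Derl3. The further Derl1 probe sets were at 0.35 (limma adjusted p = 0.0501), -0.10 and -0.17.

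Upstream bases are given for Herpud1 (chr8:94386179-94386428, plus strand), with its ERSE-II match in capitals, and for the changed genes Edem3 (chr1:151755124-151755373, plus strand) and Os9 (chr10:127121161-127121410, minus strand), which held no ERSE or ERSE-II match and where capitals mark ACGTG on either strand.
Herpud1: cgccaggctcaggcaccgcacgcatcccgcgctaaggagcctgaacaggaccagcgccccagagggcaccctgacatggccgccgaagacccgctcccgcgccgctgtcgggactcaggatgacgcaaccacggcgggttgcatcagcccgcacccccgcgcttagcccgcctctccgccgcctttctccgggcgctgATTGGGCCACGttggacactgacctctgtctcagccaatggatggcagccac
Edem3: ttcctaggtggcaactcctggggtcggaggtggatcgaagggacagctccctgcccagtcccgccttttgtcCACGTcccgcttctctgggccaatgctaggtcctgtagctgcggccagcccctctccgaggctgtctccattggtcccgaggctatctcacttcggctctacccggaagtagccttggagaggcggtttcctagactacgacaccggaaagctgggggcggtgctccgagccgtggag
Os9: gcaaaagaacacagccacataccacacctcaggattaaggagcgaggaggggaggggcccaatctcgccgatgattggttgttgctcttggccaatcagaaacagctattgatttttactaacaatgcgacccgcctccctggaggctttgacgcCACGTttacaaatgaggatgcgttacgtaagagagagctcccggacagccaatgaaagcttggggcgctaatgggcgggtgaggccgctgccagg

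The sensors pointed in opposite directions and neither passed. Ern1 (IRE1), the kinase and RNase that splices Xbp1, gave 283, 280.0 and 295 in the 3 control samples and 229, 187 and 201 in the 3 AA-treated samples. Its AA arrays were wholly below, at a log2 fold change of -0.44 ± 0.10 (SE, n = 3 per group, limma adjusted p = 0.051), and it passed in 5 of 10 alternative settings. Eif2ak3 (PERK), which slows translation by phosphorylating eIF2α, gave 514, 471 and 657 in controls and 903, 744 and 686 with AA. Its AA arrays were wholly above, at 0.53 ± 0.14 (SE, limma adjusted p = 0.0705), and it passed in 3 of 10. Control replicate 3 was its highest control, and without replicate 3 the value was 0.76 (limma adjusted p = 0.00158). The log2 differences between same-numbered arrays were 0.83, 0.68 and 0.08. Over the 10 settings the Eif2ak3 value was as low as 0.38, and its limma adjusted p as high as 0.264. The part of control replicate 3 in this was not tested.

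A further probe set was present for 28 of the 38 genes, 49 in all. Of these 49, 34 had the sign of the gene's brightest probe set, as did 23 of the 34 that lay above the array median on all arrays. Of the 49, 1 passed in limma, the Ero1a probe set at -0.69. In 7 genes, Uggt1, Pdia3, Edem1, Edem2, Sel1l, Herpud1 and Derl2, every further probe set lay on the other side of 0 from the brightest, and in Dnajc3, Ero1b and Derl1 some did. The only further probe set of Edem2 was under the array median.

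**Figure D4:**
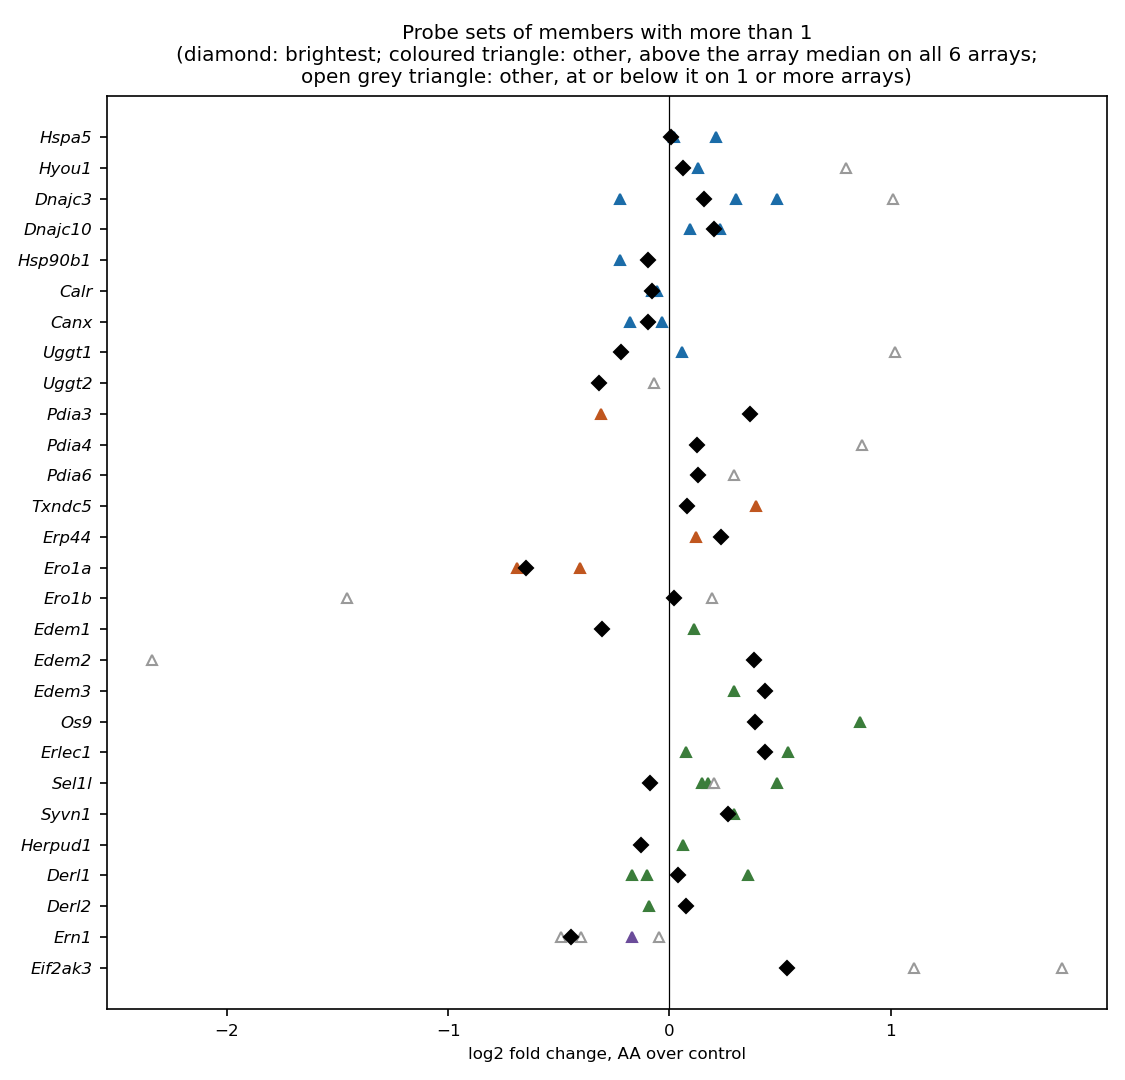
Log2 fold change, AA over control (horizontal axis), at each probe set of the 28 genes with more than 1 (vertical axis). Black diamonds are the brightest probe set, coloured triangles are others above the array median on all 6 arrays, and open grey triangles are others at or below it on 1 or more arrays. All 3 Ero1a probe sets lie below 0 and both of Os9 above, while those of Pdia3 and Edem1 lie on opposite sides.

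How far each call held was followed over 10 alternatives in scaling, filtering, blocking, probe set choice and arrays left out. Pdia5 passed in 10 of 10, with adjusted p-values from limma of 0.000659 to 0.00820. Ero1a passed in 9, Erlec1 in 6, Edem3 in 4 and Os9 in 2. Moderation without the trend on signal and the methods' paired test, which are not counted in the 10, called 0 genes of the whole array. In the first of these, Pdia5, Erlec1 and Ero1a were the listed genes that changed at an unadjusted p under 0.05 in limma. Of all 18193 genes, 1115 were higher and 1135 lower there. Edem3, Os9 and Erlec1 each kept their direction in all 10.

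**Figure D5:**
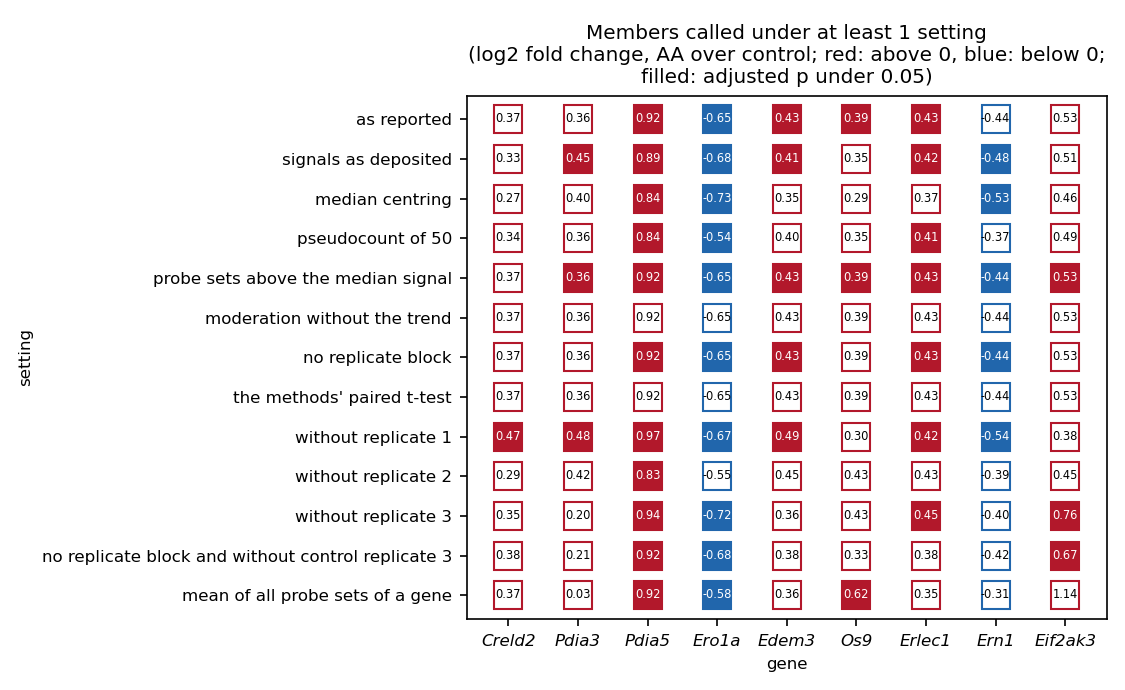
Log2 fold change, AA over control, under each setting (vertical axis) for the 9 genes called under at least 1 (horizontal axis), with red above 0, blue below 0 and filled squares for an adjusted p under 0.05. The Pdia5 column is filled in all settings but the 2 that called no gene at all, from 0.83 to 0.97.

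To place these genes among the rest of the machinery, 2 wider lists were read the same way. Of 36 other ER folding genes measured, 6 rose and 0 fell (Mesd was not measured), with a median log2 fold change of 0.13. Selenom, an ER selenoprotein, rose by 0.57 from 1203, 1065 and 1234 to 2037, 1693 and 1586 (limma adjusted p = 0.00834). Vkorc1, the vitamin K epoxide reductase that lets osteocalcin be carboxylated, rose by 0.47 (limma adjusted p = 0.0116). Dnajc1, a membrane J-domain protein, and Mogs, the glucosidase that makes the first cut in N-glycans, rose by 0.46 and 0.49. With median centring 1 of the 36 was higher, and without replicate 2, 0 were.

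Of 38 other ER-associated degradation genes measured, 2 rose and 2 fell, with a median of -0.06. Selenos, a selenoprotein that ties the p97 ATPase to the Derlins, rose by 0.48 (limma adjusted p = 0.0067) and Ube2g2, the ubiquitin-conjugating enzyme of this route, by 0.56 (limma adjusted p = 0.0103). Stub1 (CHIP), a cytosolic ligase, fell by 0.35 and Marchf6, an ER membrane ligase, by 0.32 (limma adjusted p = 0.046 and 0.0472), and with the signals as deposited neither passed.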

How the data were processed

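The authors deposited 1 linear intensity per probe set and array, without detection calls, made with MAS5 according to the submitters' processing notes. With 2% trimmed from both tails, the mean was the same on all 6 arrays. The study's methods describe quantile normalization with GC-RMA in Partek software and paired tests at a p of 0.01, and the deposited values carry neither of those normalizations.

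From the 45101 probe sets, 64 controls were set aside. Quantile normalization was applied to the log2 signals of the remaining 45037, and limma 3.58.1 (R 4.3.3) was fitted to condition and, as a block, replicate number. Moderation followed the mean signal (2 residual and 6.18 prior degrees of freedom). A probe set passed at a Benjamini-Hochberg adjusted p under 0.05 over all those tested. The block was used because the methods name paired tests. The signals printed are the deposited ones, and folds were taken after normalization, so their ratios can differ.

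In GEO's platform annotation, 34945 probe sets have 1 gene, 932 have several and 9160 have none. A gene was read by the probe set, annotated to it alone, with the highest mean. All 38 genes are named, and signals of all arrays are given for those that passed and for the largest and smallest fold change of each class, with Hspa5, Hsp90b1, Uggt1, Pdia3, Ero1b and Herpud1 added after their values were seen. From each of the wider ER lists, up to 4 genes that passed are named per direction. The 38 genes, their classes and the lists were chosen with earlier results of these data known. Promoters are RefSeq's (GRCm38.p6). Coordinates are printed for those promoters alone, since the array files state no build.

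The alternatives were median centring, no normalization beyond the deposited scaling, a pseudocount of 50, only the probe sets above the median signal, moderation without the trend, no replicate block, the methods' paired test, each replicate or control replicate 3 left out, and averaging the probe sets that share a gene. Counting any probe set of a gene, and the methods' thresholds (1.5-fold or more with an unadjusted p under 0.01), were chosen after seeing the data. The paired test was given the same Benjamini-Hochberg adjustment, which the study's methods do not name. The fit was tested on simulated data. The number of arrays limits the precision.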

Additional observations from a re-analysis of the deposited data

How the results depend on the processing

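The replicate block changed few calls. Same-numbered arrays deviated together at correlations of 0.18, 0.03 and 0.09, so the numbers are not shown to pair the samples. With no replicate block, Os9 was lost and Ern1 gained, giving 3 listed genes higher and 2 lower, and 1 of the other ER folding genes was lower. Over all genes, 3.63% were then higher and 3.67% lower. With no replicate block and without control replicate 3, 2 listed genes were higher (Pdia5 and Eif2ak3), 0 of them degradation genes, and 1 of the other degradation genes was lower. The shares of all genes were then 2.59% higher and 1.98% lower. Moderation without the trend and the paired test, adjusted here as limma was, called 0 genes at an adjusted p under 0.05. Every count was therefore 0 under both. At an unadjusted p under 0.05 the first gave 2 listed genes higher and 1 lower, beside 1115 and 1135 of all 18193 genes. The second gave 7 and 4, beside 1357 and 1513 of all genes.

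With the signals as deposited, 2 listed genes were lower, 2 disulfide enzymes were higher and 0 of the other degradation genes were lower. With median centring, 1 listed gene was higher and 2 lower, 0 degradation genes, 1 other folding gene and 1 other degradation gene were higher, and 0 other degradation genes were lower. With a pseudocount of 50, 2 listed genes and 1 degradation gene were higher, and 0 other degradation genes lower. Among the probe sets above the median signal, where fewer are tested, 2 listed genes were lower, 2 disulfide enzymes and 10 other folding genes higher, and 1 other folding gene lower. With a gene's probe sets averaged, 2 listed genes, 1 degradation gene and 1 other degradation gene were higher and 0 other degradation genes lower. With the methods' thresholds on limma's p, chosen after seeing the data, 1 listed gene, 0 degradation genes, 0 other folding genes and 0 other degradation genes were higher and 0 other degradation genes lower. Over all genes, the shares higher and lower were 3.8% and 4.11% as deposited, 2.6% and 4.16% with median centring, and 2.69% and 2.36% with the pseudocount. They were 8.45% and 8.86% among the probe sets above the median signal, and 3.19% and 2% with probe sets averaged. Beyond the smaller number tested or of arrays left out, the cause of the shifts between settings was not tested.

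Leaving out each replicate in turn, both arrays at once, gave 1 to 5 listed genes higher and 0 to 2 lower, 0 to 1 chaperones higher, 1 to 2 disulfide enzymes higher and 0 to 1 lower, 0 to 2 degradation genes higher, 0 to 5 other folding genes higher, 1 to 2 other degradation genes higher and 0 to 1 lower. Without replicate 2, Pdia5 alone of the listed genes was called. Over all genes, 3.13% were higher and 3.13% lower without replicate 1. These shares were 1.76% and 1.48% without replicate 2, and 4.01% and 3.34% without replicate 3. Counting Dnajc10 and Creld2 with the disulfide enzymes, or any probe set of a gene, changed no count of a class by more than 1.5 times.

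Values that changed sign were all uncalled. Over the fits that each left out a replicate, the log2 fold change ran from -0.0574 to 0.11 for Hspa5, -0.0459 to 0.17 for Sil1, -0.24 to 0.051 for Dnajb9, -0.20 to 0.0387 for Hsp90b1, -0.0592 to 0.23 for Pdia4, -0.17 to 0.22 for Ero1b, -0.0354 to 0.0768 for Derl1 and -0.63 to 0.49 for Derl3. With no replicate block and without control replicate 3, Hspa5 was at -0.0369, Sil1 at -0.0246, Dnajb9 at 0.0143, Ero1b at -0.15 and Derl1 at -0.0214. With median centring, Hyou1 was at -0.0344 and Ero1b at -0.0439, and with the signals as deposited Calr was at 0.0097 and Canx at 0.00306. With a gene's probe sets averaged, Uggt1 was at 0.29, Ero1b at -0.42, Edem2 at -0.98, Sel1l at 0.18 and Derl2 at -0.00904. The averages of Uggt1, Ero1b and Edem2 take in probe sets with signals under the array median. No detection calls were used, so dim signals such as those of Derl3 and Ero1b carry no limit of detection.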
